A study of Mus musculus with 6 samples.

Results

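The mature migratory dendritic cell programme is a group of genes whose messenger RNAs rise when a dendritic cell has met a danger signal and leaves the tissue for the lymph node. It was followed here through 7 named genes, Ccr7, Fscn1, Cd83, Il4i1, Tmem123, Traf1 and Birc3, out of 54532 genes in the count table. The members were chosen by name, as genes raised in mature dendritic cells, with earlier results of these data known. RNA-seq had been performed on cultured mouse dendritic cells, in 3 Control libraries and in 3 libraries of cells given DB2313, a small molecule that blocks DNA binding by the transcription factor PU.1 (gene Spi1). The labels gave no strain, age, dose or time of treatment, and both groups were held in 1640 medium with serum. The labels named dendritic cells, while the methods of the study spoke of macrophages. The columns read here as DB2313 were named for Spi1 and those read as Control were named BMDC, so all directions below rest on that reading. Nothing said whether the libraries of a group came from separate animals or cultures, and the p-values measure the spread between these libraries only.

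An immature dendritic cell takes up antigen and stays in its tissue. On maturation it puts the chemokine receptor CCR7 on its surface, follows the ligands CCL19 and CCL21 into lymphatic vessels, spreads its dendrites with the help of actin bundles, holds peptide-loaded MHC class II on its surface and engages survival signals downstream of NF-kappaB. CCR7 serves directional migration, fascin (Fscn1) bundles actin filaments, and CD83 protects MHC class II and CD86 from ubiquitination by the ligase MARCH1. Il4i1 encodes a secreted L-amino acid oxidase, Tmem123 a mucin-like membrane glycoprotein, Traf1 an adaptor of tumour necrosis factor receptors, and Birc3 the ubiquitin ligase cIAP2, which TRAF proteins recruit to those receptors. Birc3, Traf1, Ccr7 and Cd83 are known NF-kappaB targets.

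Tmem123 and Birc3 were the members whose counts were called lower with DB2313, and they lie close together. In GRCm38 coordinates, Tmem123 (ENSMUSG00000050912, chr9:7764041-7794333, plus strand) is followed at a gap of 23.9 kb by Birc2 (chr9:7818227-7837064, minus strand), the paralog that encodes cIAP1, and Birc3 (ENSMUSG00000032000, chr9:7848699-7873186, minus strand) starts beyond a further gap of 11.6 kb. Windows from 250 bases before to 50 bases after a transcription start were taken from RefSeq (GRCm38.p6) and found for 5 of the 7 members, Ccr7 and Cd83 having none in the table used. The windows of Tmem123, Birc2 and Birc3 are printed because 2 of these neighbours were called lower and the gene between them was not, and the window of Il4i1 is printed because it alone among the members held the PU.1 word searched. Sequences run 5′ to 3′ on the strand of the gene, and capitals mark a match to GAGGAAG on either strand.
Tmem123, chr9:7763827-7764126, plus strand: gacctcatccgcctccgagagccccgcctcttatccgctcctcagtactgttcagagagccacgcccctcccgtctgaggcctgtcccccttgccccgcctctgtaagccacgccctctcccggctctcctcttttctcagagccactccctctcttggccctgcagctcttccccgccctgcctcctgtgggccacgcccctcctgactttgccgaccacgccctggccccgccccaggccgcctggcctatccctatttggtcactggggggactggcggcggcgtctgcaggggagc
Birc2, chr9:7837008-7837307, minus strand: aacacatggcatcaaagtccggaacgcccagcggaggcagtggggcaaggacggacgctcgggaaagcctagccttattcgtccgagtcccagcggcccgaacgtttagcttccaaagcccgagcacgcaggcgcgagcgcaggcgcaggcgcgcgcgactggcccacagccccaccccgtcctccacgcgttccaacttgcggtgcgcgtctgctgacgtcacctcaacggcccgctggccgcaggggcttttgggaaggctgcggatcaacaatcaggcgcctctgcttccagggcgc
Birc3, chr9:7873121-7873420, minus strand: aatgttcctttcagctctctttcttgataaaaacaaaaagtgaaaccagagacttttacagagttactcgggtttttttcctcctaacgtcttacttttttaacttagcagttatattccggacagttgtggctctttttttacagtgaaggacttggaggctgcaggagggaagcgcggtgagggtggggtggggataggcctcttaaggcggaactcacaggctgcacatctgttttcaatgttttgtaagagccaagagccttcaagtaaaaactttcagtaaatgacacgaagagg
Il4i1, chr7:44836038-44836337, plus strand: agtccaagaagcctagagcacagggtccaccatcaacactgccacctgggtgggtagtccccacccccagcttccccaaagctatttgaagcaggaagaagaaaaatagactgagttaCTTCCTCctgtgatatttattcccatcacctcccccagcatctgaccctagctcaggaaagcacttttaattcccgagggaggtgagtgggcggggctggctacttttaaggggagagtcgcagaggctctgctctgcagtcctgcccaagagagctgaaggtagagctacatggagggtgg

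The word GAGGAAG, the core of many PU.1 sites, was present in 13.6% of the 32851 promoter windows in the table. Among the members it occurred once, in the Il4i1 window, 132 bases before the RefSeq start. That start lies inside the gene bounds given for Il4i1 below, downstream of the start used there. The windows of Fscn1, Tmem123, Traf1 and Birc3 held no copy, which says only that these letters are not in this stretch. A kappa-B consensus was found in 8.46% of all windows and in none of those of the members. The 2 called members differed in base composition, since G and C made up 68.7% of the printed Tmem123 window and 43.0% of the Birc3 window. The printed Birc2 window held 67.0%.

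Total counts ranged from 16146743 to 19764677 per library. Levels are given as CPM, counts scaled to a common library size by TMM, and the log2 fold change is that of DB2313 against Control, so a negative value is a lower level with DB2313. Genes were called where the adjusted p was below 0.05 in edgeR's quasi-likelihood test, with Benjamini-Hochberg adjustment over the 14174 genes that passed the filter on low counts. By that rule 10.6% of the genes tested were called, 5.94% lower and 4.66% higher with DB2313. DB2313 lay below Control in every library, without overlap, for 14.5% of the genes tested.

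Of the 7 members, 6 passed the filter, 2 were called lower, none was called higher and 4 did not pass the test. Beside the 5.94% of all genes called lower, 2 of 6 is a small count. All 6 fitted log2 fold changes were negative, with a median of -0.22 against 0.00082 over all genes tested. DESeq2, which called 11.6% of its genes, and limma-voom each called 2 members. In bulk RNA, fewer mature cells and less of these RNAs per cell cannot be told apart.

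**Figure D1:**
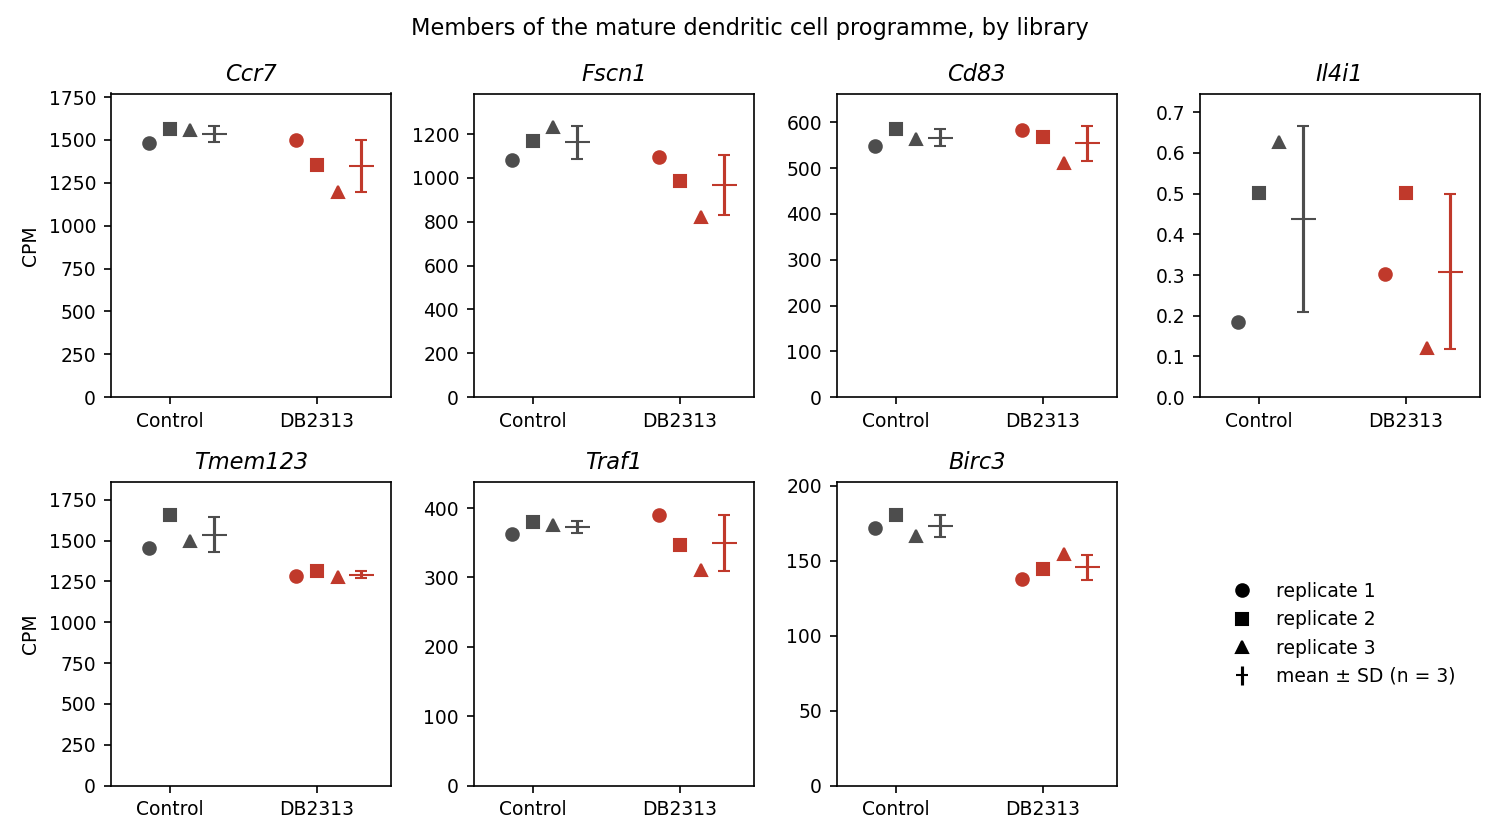
CPM of the 7 members in each library, with an axis from 0 for each gene, points for the 3 libraries of a group and a bar for mean ± SD (n = 3). Tmem123 and Birc3 lie lower in all 3 DB2313 libraries than in any Control library, the other members overlap, and Il4i1 is at most 0.63 CPM.

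Tmem123 was measured at 1453, 1659 and 1498 CPM in Control replicates 1 to 3 and at 1284, 1317 and 1274 CPM in DB2313 replicates 1 to 3. The DB2313 libraries were all lower than the Control libraries and lay close to each other. The mean fell from 1537 ± 108 to 1292 ± 22.1 CPM (SD, n = 3 each), and the log2 fold change was -0.25 ± 0.068 (SE, 95% confidence interval -0.40 to -0.11, edgeR adjusted p = 0.0272). On the linear scale Tmem123 fell by 16.0%. Control replicate 2 was the highest library. Without it the log2 fold change was -0.19 and the edgeR adjusted p was 0.202, and the call was also missed without Control replicate 3 (edgeR adjusted p = 0.0921) and without DB2313 replicate 2 (edgeR adjusted p = 0.107).

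Birc3 was measured at 172, 181 and 167 CPM in Control and at 138, 145 and 154 CPM in DB2313. The groups did not overlap. Its mean fell from 173 ± 7.16 to 146 ± 8.19 CPM (SD, n = 3 each), with a log2 fold change of -0.25 ± 0.072 (SE, 95% confidence interval -0.40 to -0.096, edgeR adjusted p = 0.0375), or 15.9% on the linear scale. The Birc3 call remained when DB2313 replicate 3 was left out (log2 fold change -0.29, edgeR adjusted p = 0.00579) and was missed without any other single library, at edgeR adjusted p values between 0.0693, when DB2313 replicate 1 was omitted, and 0.195, when Control replicate 2 was. Birc3 transcripts share stretches of at most 369 bp, at 95% identity or more, with transcripts of 8 other genes, out of 5009 bp, and reads from them may be divided between genes.

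Birc2, which lies between the called members and encodes a protein closely related to that of Birc3, was measured at 159, 157 and 154 CPM in Control and 172, 175 and 163 CPM in DB2313. Its log2 fold change was 0.12 ± 0.068 (SE) and was not called (edgeR adjusted p = 0.322). The ratio of Birc3 to Birc2 counts within a library needs no scaling between libraries. It was 1.08, 1.15 and 1.08 in Control and 0.804, 0.827 and 0.945 in DB2313. The ratio was lower in every DB2313 library than in any Control library, and as a ratio of reads it depends on the lengths of both genes and does not rank their levels. The exact two-sided permutation test gave p = 0.1, the smallest that 3 against 3 libraries allow. Birc3 lay lower and Birc2 higher with DB2313, each without overlap. The outcome for the ratio therefore followed from these values and is no separate support for the Birc3 call. Traf2, the TRAF protein that recruits both cIAPs, had a log2 fold change of 0.089 and was not called (edgeR adjusted p = 0.573).

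Ccr7 (ENSMUSG00000037944, chr11:99144196-99155077, minus strand), the receptor that guides mature cells to the lymph node, was measured at 1483, 1564 and 1559 CPM in Control and 1497, 1355 and 1194 CPM in DB2313. DB2313 replicate 1 lay within the Control range and the other two lay below it. The means were 1535 ± 45.4 and 1349 ± 152 CPM (SD, n = 3 each). The log2 fold change of -0.19 ± 0.079 (SE, 95% confidence interval -0.35 to -0.019) was not called, at an edgeR adjusted p of 0.161 and an unadjusted p of 0.0311. Without DB2313 replicate 1, the treated library inside the Control range, it was -0.27 and was called (edgeR adjusted p = 0.0131). Without any other single library it was not called, at edgeR adjusted p values between 0.238 and 0.41. It shrank to -0.11 without DB2313 replicate 3.

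Fscn1 (ENSMUSG00000029581, chr5:142960343-142973185, plus strand), which bundles actin in the dendrites of mature cells, followed the same order of libraries. It was measured at 1084, 1168 and 1233 CPM in Control and 1096, 987 and 821 CPM in DB2313, again with only DB2313 replicate 1 inside the Control range. The mean was 1162 ± 74.8 CPM in Control and 968 ± 138 CPM in DB2313 (SD, n = 3 each). A log2 fold change of -0.26 ± 0.091 (SE, 95% confidence interval -0.46 to -0.068) was as large as that of Tmem123 but was not called (edgeR adjusted p = 0.0835). Without DB2313 replicate 1, again the treated library inside the Control range, it was -0.36 and was called (edgeR adjusted p = 0.00247). Without any other single library it was not called, at edgeR adjusted p values between 0.115 and 0.305. It shrank to -0.16 without DB2313 replicate 3. The Ccr7 to Fscn1 count ratio was 1.37, 1.34 and 1.26 in Control and 1.37, 1.37 and 1.45 in DB2313, and the ranges met (exact two-sided permutation p = 0.2).

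Cd83 (ENSMUSG00000015396, chr13:43784775-43803132, plus strand), the surface marker of mature dendritic cells, was measured at 550, 585 and 565 CPM in Control and 583, 568 and 512 CPM in DB2313. The groups overlapped. The log2 fold change was -0.032 ± 0.070 (SE) and was not called (edgeR adjusted p = 0.841). Its 95% confidence interval, -0.18 to 0.12, holds changes from a fall of about the size seen for Ccr7 to a small rise, and without DB2313 replicate 3 the sign turned to 0.024.

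Ccr7 reads were compared with Cd83 reads of the same library after their values had been seen. The ratio was 2.70, 2.67 and 2.76 in Control and 2.57, 2.38 and 2.33 in DB2313. It was lower in all DB2313 libraries, at the smallest p that the exact two-sided permutation test of 3 against 3 allows (p = 0.1). Because the pair was chosen after the values were seen, this p-value is a description and no support for a difference. The groups of this ratio did not overlap, although those of Ccr7 and of Cd83 each did. Ratios of Traf1 to Traf2 and of Il4i1 to Tbc1d17, a gene that overlaps it, were also computed. Their groups overlapped (exact two-sided permutation p = 0.3 and 0.9).

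**Figure D2:**
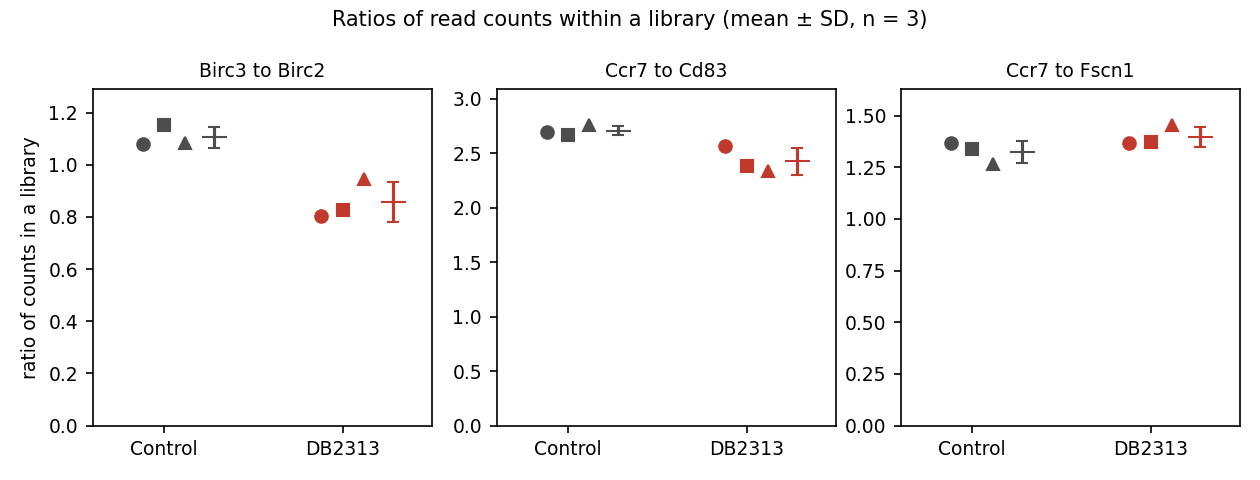
Ratio of read counts of 2 genes within a library, for Birc3 to Birc2, Ccr7 to Cd83 and Ccr7 to Fscn1, with points for the libraries and mean ± SD (n = 3) beside them. The first ratio goes from a mean of 1.11 to 0.858 and the second from 2.71 to 2.43 without overlap, while the third overlaps. The Ccr7 to Cd83 pair was chosen after its values had been seen.

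Traf1 (ENSMUSG00000026875, chr2:34941750-34961772, minus strand), the adaptor that is raised by NF-kappaB and binds cIAPs, was measured at 363, 380 and 376 CPM in Control and 391, 347 and 311 CPM in DB2313. DB2313 replicate 1 was the highest of all libraries and the other two were the lowest. The log2 fold change was -0.092 ± 0.080 (SE, 95% confidence interval -0.26 to 0.079), which was not called (edgeR adjusted p = 0.548).

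Il4i1 (ENSMUSG00000074141, chr7:44816387-44840809, plus strand) had 3, 8 and 10 reads in Control and 5, 10 and 2 reads in DB2313, and did not pass the filter. With so few reads no difference was detectable. In the annotation whose gene bounds match the table, 86.3% of the exon bases of Il4i1 are also exon bases of other genes, which leaves 560 of 4080 bp to it alone. The largest part, 3423 bp, is shared with Tbc1d17 on the opposite strand, 97 bp with Nup62 on the same strand and 82 bp with Atf5 on the opposite strand. None of the other 6 members shares an exon base with another gene. Whether the counting used strand was not stated, and the part of this overlap in the low count of Il4i1 was not tested. Thus the count of Il4i1 is uncertain as a measure of its RNA.

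The genes over Il4i1 were well covered. Tbc1d17, a Rab GTPase-activating protein, was called lower, from 87.9 ± 9.70 to 67.8 ± 4.46 CPM (SD, n = 3 each, log2 fold change -0.38, edgeR adjusted p = 0.0153). The shared 3423 bp and the unknown strand setting bear on the Tbc1d17 count as well, and their part in its call was not tested. Atf5, a transcription factor of the stress response, was called lower from 57.7 ± 0.574 to 34.8 ± 4.98 CPM (log2 fold change -0.73, edgeR adjusted p = 0.0003). Nup62, a nuclear pore protein, was not called (log2 fold change 0.039, edgeR adjusted p = 0.819).

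**Figure D3:**
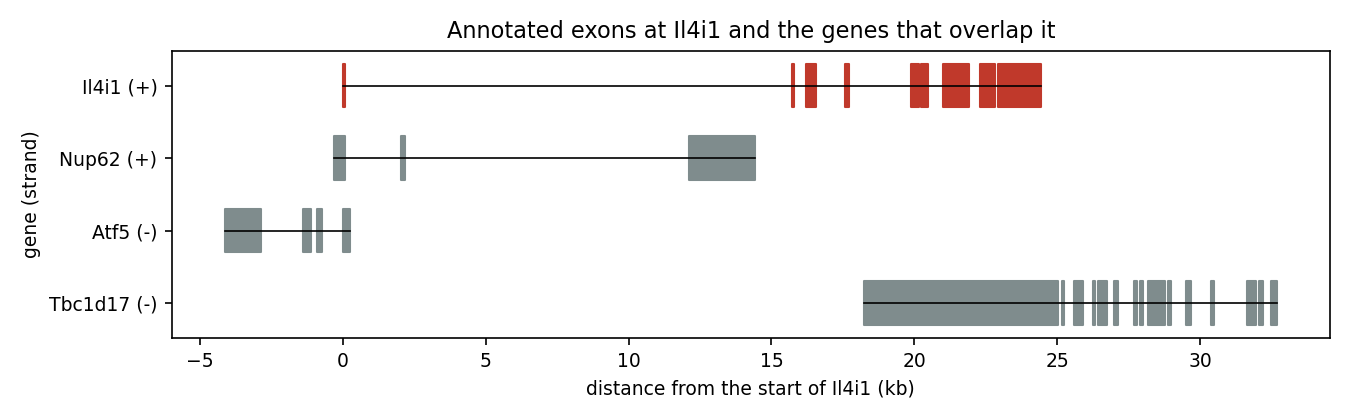
Annotated exons, merged over transcripts, of Il4i1 and the 3 genes that overlap it, drawn to scale against distance in kb from the annotated start of Il4i1, with the strand of each gene beside its name. Tbc1d17 exons cover 3423 of the 4080 exon bases of Il4i1.

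Levels of different genes were compared only per length, as FPKM (CPM divided by the gene's length in kb). For the members this length equals that of all annotated exons merged, and the order below depends on it. Before division by length, Ccr7 and Tmem123 had 1535 and 1537 CPM in Control. Which transcripts the cells made was not tested. In Control, Ccr7 stood highest of the members at 776 ± 22.96 FPKM (SD, n = 3), followed by Tmem123 at 494 ± 34.8, Fscn1 at 386 ± 24.8, Cd83 at 220 ± 7.0, Traf1 at 42.2 ± 1.00 and Birc3 at 34.6 ± 1.43 FPKM. Each step in this order exceeded the SDs of the neighbours. Ccr7 ranked 53rd among all tested genes in Control FPKM, in the top 0.367%, and Traf1 and Birc3 were in the top 9.33% and 11.6%. The RNAs of the migration genes were thus abundant in the untreated cells. With DB2313 the order of the 6 genes by mean FPKM was unchanged, from 682 ± 76.6 for Ccr7 to 29.1 ± 1.64 for Birc3.

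The members did not all vary together in the treated libraries. The coefficient of variation between DB2313 libraries was 11.2% for Ccr7, 14.3% for Fscn1 and 11.4% for Traf1, against 2.96%, 6.44% and 2.37% in Control. For Tmem123 it was 1.71% in DB2313 and 7.04% in Control. Ccr7, Fscn1, Cd83 and Traf1 were highest in DB2313 replicate 1 and lowest in DB2313 replicate 3, whereas Birc3 had the opposite order. Over the 6 tested members, the median deviation from the Control mean on the log2 scale was -0.059, -0.20 and -0.26 in DB2313 replicates 1 to 3, and -0.047, 0.037 and 0.0038 in Control replicates 1 to 3.

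The DB2313 libraries also differed from each other in markers of other cells. The summed level of 10 T cell genes was 327, 268 and 214 CPM in DB2313 replicates 1 to 3, against 219 to 255 CPM in Control, and none of the 10 was called. The sum of 10 neutrophil genes was 4516, 3791 and 3532 CPM in DB2313 against 3357 to 3750 CPM in Control, with 3 called higher and 1 lower. That of 8 mast cell and basophil genes was 1691, 1597 and 1431 CPM against 1411 to 1494 CPM, with 2 called higher. Over all genes tested, 4.66% were called higher and 5.94% lower. Among the DB2313 libraries each of these sums was highest in replicate 1 and lowest in replicate 3, as were Ccr7, Fscn1, Cd83 and Traf1. CCR7 is also carried by naive T cells, and the part of these cells in the results was not tested.

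The label was checked on dendritic cell and macrophage markers. The 12 dendritic cell genes summed to 4195 to 4218 CPM in Control and 3837 to 4098 CPM in DB2313, and 3 of the 11 tested were called lower. Itgax (CD11c) was present at 172 CPM in Control and Zbtb46 at 85.0 CPM, while Cd209a had at most 0.20 CPM in any library and Xcr1 averaged 1.04 CPM in Control. The 12 macrophage genes summed to 10149 to 11460 CPM in Control and 9140 to 10011 CPM in DB2313, most of it Lyz2, with 6 called lower and 2 higher. For both lists the shares over all genes tested were 5.94% lower and 4.66% higher. The sums of 7 B cell genes (at most 8.14 CPM) and 6 fibroblast genes (at most 1.64 CPM) were close to 0, and 5 of the genes in each list averaged below 1 CPM. Whether the share of dendritic cells differed between the groups was not tested.

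Other genes of dendritic cell maturation, 47 in a list from general knowledge, were counted beside the members. The list was drawn up with earlier results of these data known, so its share of called genes is a description. Of the 46 tested, 21 were called lower (45.7%, beside 5.94% of all genes), 1 was called higher and 24 did not pass the test. Their median log2 fold change was -0.26, close to the -0.22 of the members, and 36 of 46 were negative. The count called lower ranged from 16 to 27 when 1 library was left out. DB2313 lay below Control without overlap for 29 of the 46, beside 14.5% of all genes tested.

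**Figure D4:**
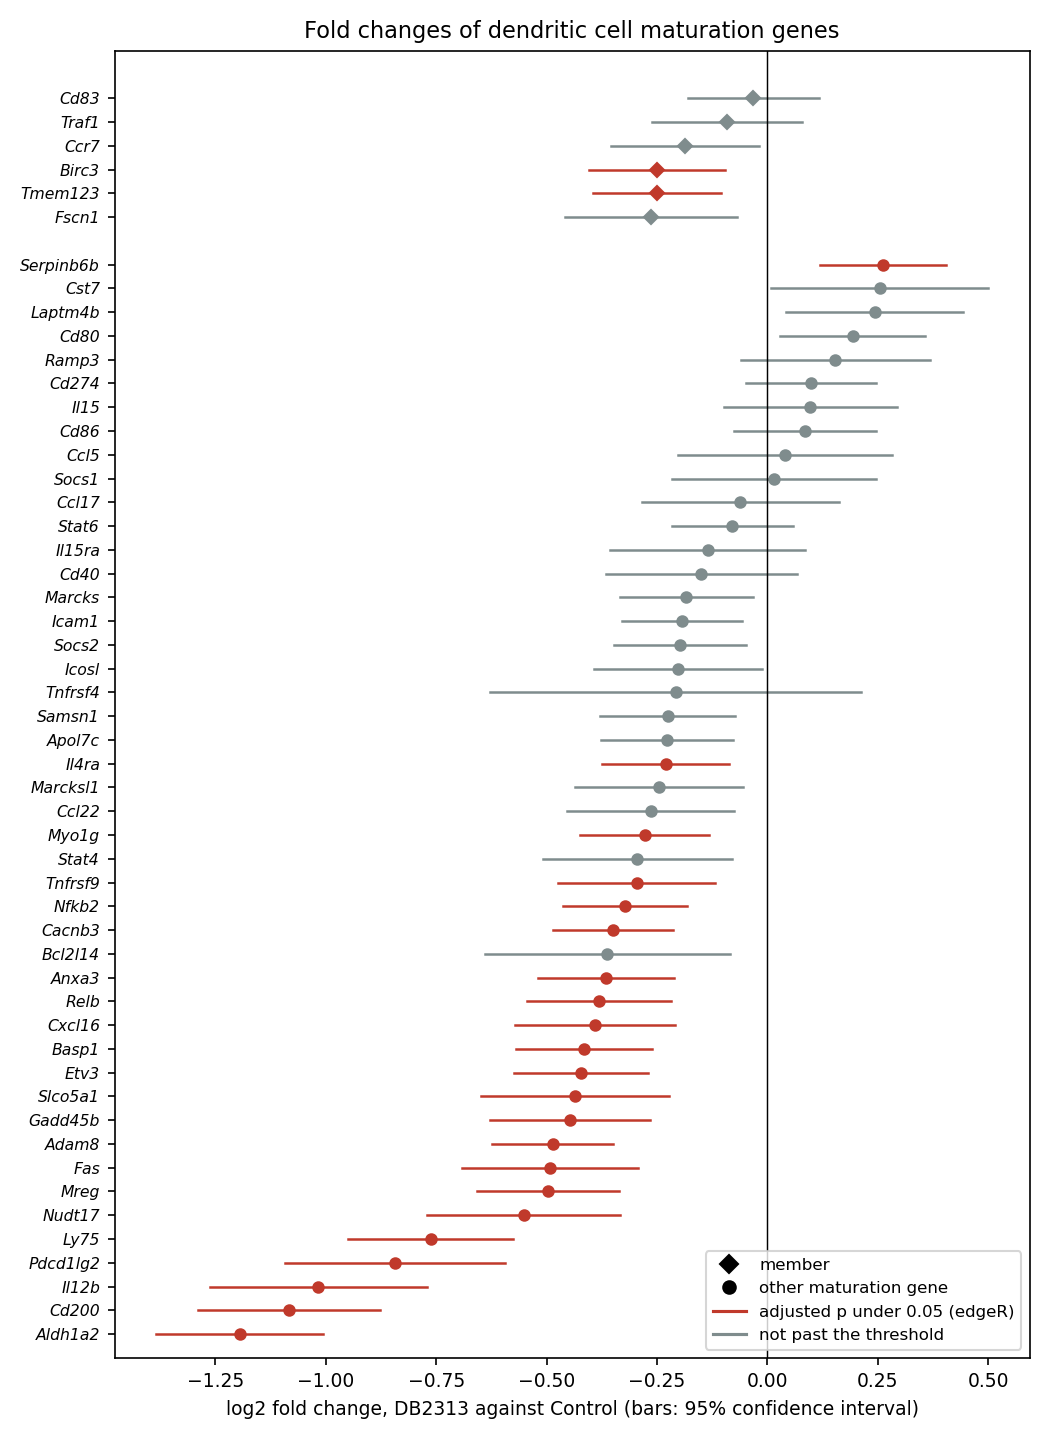
Log2 fold change of DB2313 against Control with its 95% confidence interval for the 6 tested members (diamonds) and 46 other maturation genes (circles), coloured where the edgeR adjusted p was under 0.05. The members lie between -0.26 and -0.032, while the list below them reaches -1.20 for Aldh1a2.

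The lowest fold changes of the list lay below that of any member. Aldh1a2, which makes retinoic acid, was at 180, 193 and 183 CPM in Control and 93.0, 75.6 and 74.1 CPM in DB2313 (log2 fold change -1.20 ± 0.089 SE, edgeR adjusted p = 9.8e-07). The log2 fold change was -1.08 ± 0.097 (SE) for Cd200, an inhibitory surface ligand (edgeR adjusted p = 5.3e-06), and -1.02 ± 0.12 (SE) for Il12b, the shared subunit of interleukins 12 and 23 (edgeR adjusted p = 4.9e-05). Serpinb6b, an intracellular protease inhibitor, was the gene called higher (log2 fold change 0.26 ± 0.067 SE, edgeR adjusted p = 0.0202), and under the replicate block and without any one Control library, or DB2313 replicate 2, no gene of the list was called higher.

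Further genes of the list were named after their values had been seen. The checkpoint ligand Pdcd1lg2 (log2 fold change -0.84) and the uptake receptor Ly75 (-0.76) were called lower (edgeR adjusted p = 0.00029 and 5.7e-05). The costimulatory ligands Cd80 (log2 fold change 0.19) and Cd86 (0.085), and the checkpoint ligand Cd274 (0.099), were not called (edgeR adjusted p = 0.137, 0.557 and 0.431). Of the chemokines in the list, Cxcl16 was called lower (log2 fold change -0.39, edgeR adjusted p = 0.00789). Ccl22 had a log2 fold change of -0.26, Ccl17 of -0.061 and Ccl5 of 0.041, and these were not called (edgeR adjusted p = 0.0734, 0.788 and 0.879), although Ccl22 passed in DESeq2 (adjusted p = 0.0495).

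**Figure D5:**
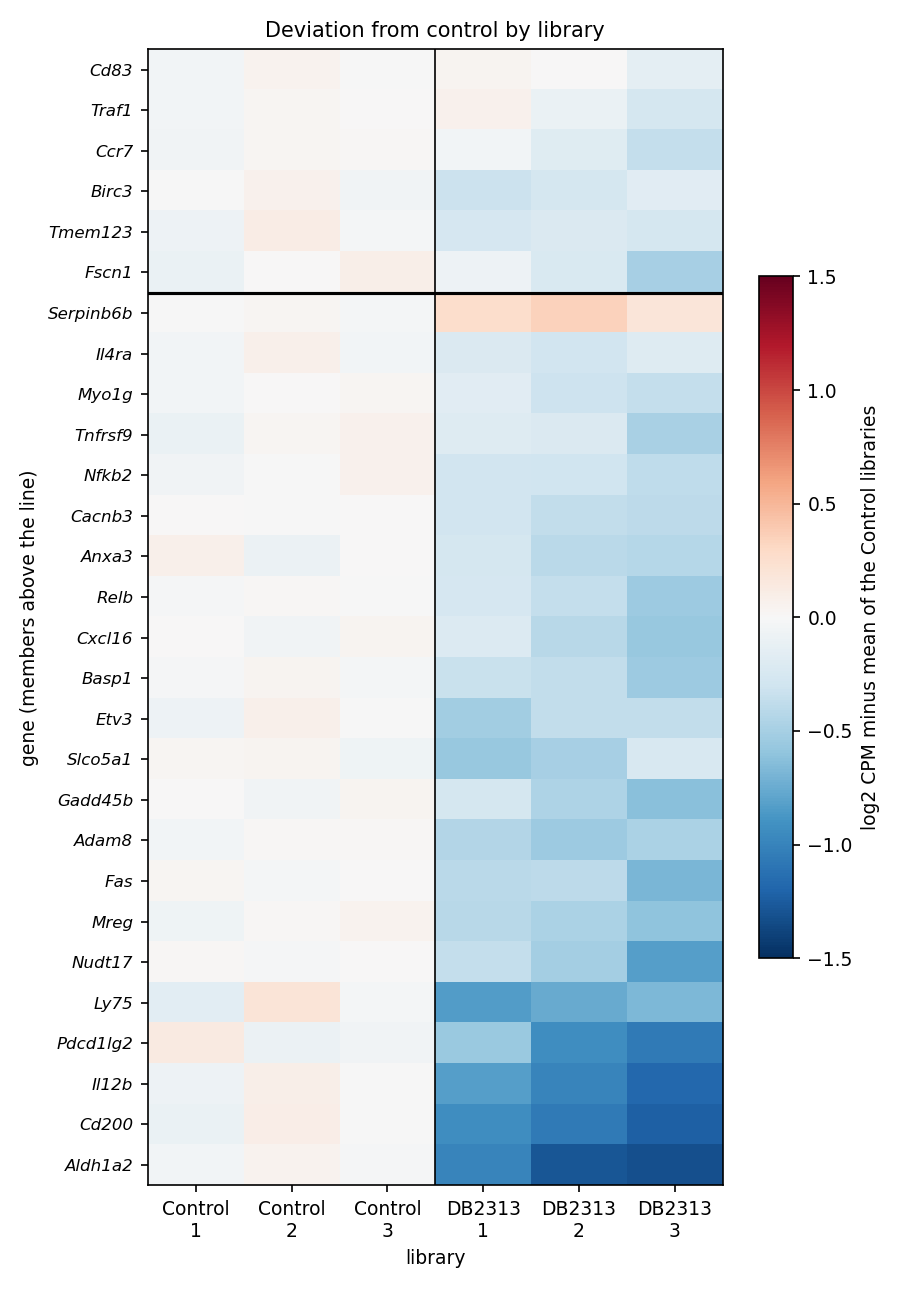
Log2 CPM of each gene in each library minus the mean of the Control libraries (colour scale from -1.5 to 1.5), with the 6 tested members above the line and the 22 called genes of the maturation list below it. The members are paler than the genes at the bottom, and for Ccr7, Fscn1 and Traf1 the colour is deepest in DB2313 replicate 3.

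Over the 46 tested genes of the list, the median log2 deviation from Control was -0.19, -0.28 and -0.37 in DB2313 replicates 1 to 3. Over all genes tested it lay between -0.0028 and 0.0026 in every library.

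The genes around each member's role were counted in the same way. Of 33 tested genes for CCR7 signalling and actin, 2 were called lower and 1 higher, with a median log2 fold change of -0.0099. The share called was 9.09%, beside 10.6% of all genes. Myh9, the heavy chain of non-muscle myosin (log2 fold change -0.29, edgeR adjusted p = 0.0363), and Actn1, an actin crosslinker (-0.29, edgeR adjusted p = 0.016), were called lower. Rac2, a GTPase of leukocyte motility, was called higher (log2 fold change 0.23, edgeR adjusted p = 0.0472). The CCR7 ligands Ccl19 and Ccl21a were listed at 0 counts in all libraries. Fscn2, a paralog of fascin, was at 1.37 CPM in Control and was not called (edgeR adjusted p = 0.594), and Fscn3 was too low to be tested.

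Of 33 genes of the TRAF, cIAP and NF-kappaB pathways, 7 were called lower (21.2%, beside 5.94% of all genes) and none was called higher. Their median log2 fold change was -0.077. Relb, the partner subunit of the alternative NF-kappaB pathway, fell from 341 ± 4.97 to 262 ± 26.2 CPM (SD, n = 3 each, log2 fold change -0.38, edgeR adjusted p = 0.00449). The log2 fold change was -0.36 for Rel, the c-Rel subunit (edgeR adjusted p = 0.0057), and -0.35 for Cflar, the inhibitor of caspase-8 (edgeR adjusted p = 0.0264). Named after their values were seen, Nfkb2 (log2 fold change -0.32) and Map3k14 (-0.23), the p100 subunit and the kinase that Birc2 and Birc3 help to degrade, were called lower too, as were the inhibitor Nfkbib (-0.31) and Tnip1 (-0.27). Relb and Nfkb2 stand in the maturation list as well.

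EdgeR called none of the 10 tested genes tied to CD83, MARCH1 and MHC class II, beside 10.6% of all genes in either direction. With 10 genes, none called is close to that share. DESeq2, which called 906 of its 14173 genes lower, called 2 of the 10 lower. DB2313 lay below Control without overlap for 4 of the 10, beside 14.5% of all genes tested. The median log2 fold change was -0.16, and 8 of the 10 were negative. Of 13 tested genes of amino acid breakdown and the aryl hydrocarbon receptor, the path on which Il4i1 products act, 1 was lower and 1 higher. The share called was 15.4%, beside 10.6% of all genes by edgeR. Arg1, the arginase, fell from 59.1 ± 5.01 to 17.5 ± 3.33 CPM (SD, n = 3 each, log2 fold change -1.76, edgeR adjusted p = 7.1e-07). Tiparp, a target of that receptor, rose from 29.8 ± 3.18 to 42.3 ± 2.67 CPM (log2 fold change 0.51, edgeR adjusted p = 0.00417).

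Genes listed for antigen uptake and the immature state, not all of them uptake receptors, moved in both directions. Cd14 and Cd163 among them stand in the macrophage marker list as well. Of 18 tested, 7 were called lower (38.9%, beside 5.94% of all genes) and 4 higher (beside 4.66%). Their median log2 fold change was -0.050. The chemokine receptor Cx3cr1 had a log2 fold change of -1.26 and the LPS co-receptor Cd14 of -0.88 (edgeR adjusted p = 0.0004 and 6.4e-06). The scavenger receptor Cd163 was called lower from a level of 1.64 ± 0.508 CPM in Control (edgeR adjusted p = 0.0123). The lectin Clec10a rose from 19.9 ± 1.15 to 57.7 ± 2.72 CPM (SD, n = 3 each, log2 fold change 1.53, edgeR adjusted p = 1.2e-07). Fcgr2b, the inhibitory Fc receptor (log2 fold change 0.48), and the lipid receptor Cd36 (0.35) rose with it (edgeR adjusted p = 0.00165 and 0.019).

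The genes most like each member were sought over the 6 libraries among genes with a mean log2 CPM of at least 3. Likeness was measured as the root mean square difference between log2 CPM profiles centred on the Control mean. For Ccr7 the nearest were Rela, at a difference of 0.025, and Ube2r2, at 0.026. Fscn1 was nearest to Ccl22 (0.029) and Nsun5 (0.042), the first being a chemokine of the maturation list. Birc3 was nearest to Map3k15 (0.015) and Itgb1 (0.021), and Tmem123 to Tmem70 (0.026) and Sos1 (0.028). For Traf1 they were Atp6v0d1 (0.020) and Slc25a38 (0.023), and for Cd83 Cct4 (0.014) and Pi4k2b (0.022). Such small differences are found by search among many genes and describe these libraries.

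Genes that overlap a member or start within 100 kb of it were counted too. Of the 11 tested at Il4i1, 2 were called lower and 1 higher, beside 10.6% of all genes in either direction. Of the 2 tested near Traf1, 1 was called higher. None of the 3 tested neighbours of Ccr7 or of the 3 of Fscn1, Actb among them (log2 fold change -0.16, edgeR adjusted p = 0.236), was called. Phf19, near Traf1, was called higher (log2 fold change 0.57, edgeR adjusted p = 0.0119), as was Med25, near Il4i1 (0.29, edgeR adjusted p = 0.0255). Apart from Birc2 and Birc3, the tested neighbour of Tmem123 was the pseudogene Gm10709, which was not called (log2 fold change 0.37, edgeR adjusted p = 0.092). No neighbour of Cd83 was tested.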

How the data were processed

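RNA-seq was performed by the authors on 3 Control and 3 DB2313 libraries of mouse dendritic cells. The table the authors deposited holds whole, unnormalised read counts for each gene and library, beside a gene length in base pairs. The submitters' processing notes name CASAVA 1.8, HISAT2 2.0.5 and featureCounts 1.5.0-p3, whereas the methods of the study name LifeScope. The genome build, the strand setting and the treatment of reads with several matches are not given in the sources used here. The gene bounds equal those of GENCODE M21 for 98.3% of 54409 common identifiers and for all 7 members, so coordinates are given as GRCm38. Groups were taken from the treatment in the labels, and columns were matched to samples by their names.

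Groups were compared by edgeR 4.0.16 with its quasi-likelihood test (R 4.3.3) with TMM scaling and filterByExpr, with no term but the group, and with p-values adjusted by Benjamini-Hochberg over 14174 genes (threshold 0.05). It was checked on simulated data. The biological coefficient of variation was 9.66%. Total counts of 16146743 to 19764677 per library set the counting error, and since the reads carry no molecular identifiers they may repeat a molecule. As alternatives the scaling was changed to library totals or to the size factors of DESeq2, the filter was dropped or set to a mean of 10 counts, and the test was changed to DESeq2 1.42.0 (the tool named by the study) or limma-voom (limma 3.58.1). A gene length offset (lowess with span 0.3), a replicate block and the omission of each library were also tried. Deviations and likeness used log2 CPM with a pseudocount of 0.5. Copies were searched with blastn 2.17.0 over 100 bp or more with an identity of 95% or more. The labels give no batch.

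The rule for named genes took the 7 members, at most 3 called genes in each direction from each list, the paralogs Birc2, Traf2, Fscn2 and Fscn3, the tested genes overlapping or starting within 100 kb of a member, and the 2 genes most like each member. The members, lists and tests were chosen with earlier results of these data known.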

Additional observations from a re-analysis of the deposited data

How the results depend on the processing

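Over 14 alternatives, Tmem123 was called lower in 10 and Birc3 in 7, and both were negative in all 14. Scaling by library totals left 1 member called, with Birc3 at -0.23 (adjusted p = 0.0688, edgeR). Without a filter Fscn1 was called at -0.25 (edgeR adjusted p = 0.00663). An offset for gene length called 4 members, adding Ccr7 at -0.23 and Fscn1 at -0.29 (edgeR adjusted p = 0.014 and 0.017). With the replicate block 0 members were called (Tmem123 -0.25, adjusted p = 0.108, and Birc3 -0.25, adjusted p = 0.1, both edgeR), and 0 maturation genes were called higher, while 18 of the 21 called lower remained. Libraries of the same number did not deviate together (correlations of -0.0080, -0.019 and -0.15). This does not settle whether they share a culture or an animal, which the labels do not say.

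Leaving out 1 library gave 0 to 3 members called, 328 to 1097 genes higher and 411 to 1311 lower over all genes, 0 to 5 maturation genes higher and a median of the maturation list from -0.33 to -0.21. The log2 fold change ranged from -0.29 to -0.19 for Tmem123, -0.29 to -0.21 for Birc3, -0.27 to -0.11 for Ccr7, -0.36 to -0.16 for Fscn1 and -0.068 to 0.024 for Cd83. The positive value of Cd83 came without DB2313 replicate 3, as did the highest counts over all genes, 1097 higher and 1311 lower. Without DB2313 replicate 1, Ccr7 and Fscn1 passed the threshold and Birc3 did not. The cause of these changes was not tested. The lowest count of the 6 tested members in a library was 2272, and Il4i1, with at most 10 reads, had no test.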
